A study of Mus musculus with 12 samples.

Results

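The genes examined here are the protein-coding neighbours of Chil1, the mouse gene for the secreted chitinase-like protein Chi3l1, on chromosome 1. They were chosen by position, apart from named genes that were left out, and with earlier results of these data known. Each has its start, in the authors' table, within 2 Mb of either end of Chil1 (chr1:134182176-134190181, plus strand, build GRCm38), and Chit1 and Elf3, which also lie there, were left out with Chil1 itself. The rule gave 70 genes of the 54532 in the table, 33 at lower and 37 at higher coordinates than Chil1. The first gene inside the window at the lower end was Lemd1, starting 1.99 Mb away, and the last at the upper end was Mroh3, also 1.99 Mb away. Just outside stood Cdk18 at 2.07 Mb and Inava at 2.02 Mb, whose log2 differences of Chi3l1 ko against WT were -0.18 and -0.33.

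The RNA came from mammary glands with hyperplasia, taken from female mice (FVB/N) of the MIC line, in which doxycycline in the drinking water (2 mg/ml; titles carry 2 wk) switches on the polyoma middle T oncogene and Cre recombinase in the mammary epithelium. All 3 groups carry these transgenes and received doxycycline, so the 4 WT libraries are hyperplastic glands too and not normal tissue. The other groups are 4 libraries labelled MIC Stat3 ko and 4 labelled MIC Chi3l1 ko. The labels give no age, no batch and no litter, and they do not say how the Chi3l1 allele was built, in which strain, or whether it is removed in every cell or by Cre alone. What separates the 4 samples of a group is not stated either, so p-values measure the spread between these samples.

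A removed gene can leave marks on its neighbours. Deleting or interrupting a locus may take away regulatory DNA that neighbouring genes share, and a selection cassette may drive or block transcription nearby. Where an allele was built in another strain and then bred into the present one, a stretch of the donor chromosome stays linked to it, and genes there can differ by sequence alone. Both kinds of difference would lie close to the target, on the same chromosome, and would appear in the knockout of that gene but not in a knockout of another gene.

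The targeted gene was checked first. Chil1 stood at 125, 212, 160 and 107 FPKM (fragments per kilobase of gene, scaled to library size) in WT. In Chi3l1 ko it was represented by 1, 2, 0 and 0 counts. In Stat3 ko it stood at 17.6, 4.92, 10.8 and 13.6 FPKM. On the log2(FPKM + 1) scale the difference from WT was -7.18 ± 0.31 (limma's moderated standard error, SE) in Chi3l1 ko, with an adjusted p of 1.09e-06, and -3.65 ± 0.31 in Stat3 ko, with an adjusted p of 6.93e-05. Stat3 ko is therefore not a group with normal Chil1: it shares a lower level of that transcript with Chi3l1 ko, with the locus itself not targeted.

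Of the 70 neighbours, 45 were tested, those with 1 FPKM or more in 4 or more of the 12 libraries (64.3%, against 54.5% of the 22046 protein-coding genes of the table). Among the tested genes 17 averaged over 10 FPKM, 27 between 1 and 10, and 1 below 1. The most abundant was Csrp1, which encodes a LIM-domain protein of the actin cytoskeleton, at 157 ± 25.8 FPKM in WT (SD, n = 4). Adipor1, a receptor for the fat hormone adiponectin, followed at 37.7 ± 0.631, and Lad1, a protein of the basement membrane zone of epithelia, at 35.1 ± 8.20. Of the 25 untested genes 7 had no count in any library and 16 others stayed below 1 FPKM in every library. Myog and Tnni1 reached 1 FPKM only in libraries rich in muscle transcripts. Of the genes without counts, Kiss1, Zbed6, the Gm28040 entries and the untested Zc3h11a entry overlap other entries on the same strand. How reads shared by overlapping genes were counted is not given, so the missing counts do not show that these genes are silent. Zc3h11a and Gm28040 each stand among the 70 under more than 1 gene identifier. The 70 genes do not form a family: 39 lie on the plus and 31 on the minus strand, and they include muscle, neural, lymphoid, epithelial and ubiquitously expressed genes.

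With Chil1 removed, no flanking gene passed the threshold. In Chi3l1 ko against WT, limma called 0 of 45 neighbours, where 1 of all 13643 tested genes was called (0.00733%), namely Chil1. The neighbours' log2 differences ran from -0.58 to 0.63, 23 positive and 22 negative, with a median of 0.01 (0.003 over all tested genes). The median size of a difference, whatever its sign, was 0.08, the same as over all tested genes. At an unadjusted p under 0.05 stood 2 of 45, Rabif and Btg2, against 1.63% of all tested genes. The WT and Chi3l1 ko libraries did not overlap for 3 of 45 neighbours, all lower in Chi3l1 ko (Btg2, Rabif and Nuak2), against 1.36% lower over all tested genes. None of the 45 was higher without overlap, against 1.12%.

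Other count-based tests on whole reads recovered from the FPKM values gave 0 called neighbours with edgeR on all 12 libraries (0.00733% of all genes) and 0 with DESeq2 on all 12 (0.0586%). edgeR on the 8 compared libraries also called 0 (0.00733%). DESeq2 on those 8 libraries, a fit added after the data were seen, called 2 of 45, Rabif and Btg2, where it called 29 of 13643 genes in all (0.213%), 10 higher and 19 lower. The authors' deposited table for Chi3l1 ko against WT rests on the same counts and lists 824 genes. It has the same 2 neighbours under an adjusted p of 0.05, and how many of all genes pass there was not counted. Rabif has a log2 fold change of -0.58 there with an adjusted p of 0.00285, and Btg2 has -0.58 with 0.0113. The 29 genes lay on 17 chromosomes or contigs, and 4 of them lay on chromosome 1: Chil1, Rabif, Btg2 and Hes6, which lies more than 2 Mb away.

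**Figure D1:**
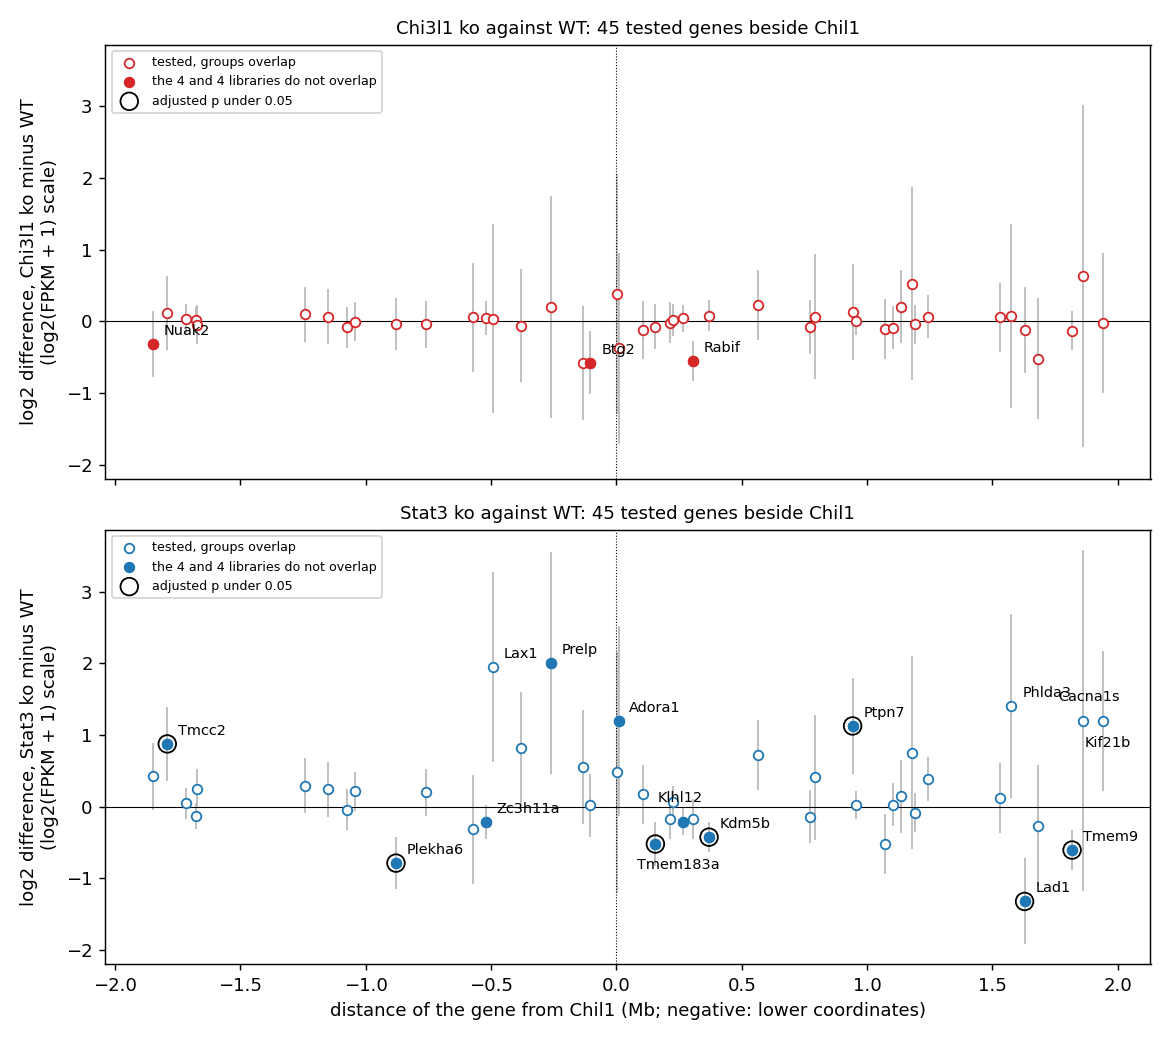
Log2 difference from WT of the 45 tested neighbours (vertical axis, log2(FPKM + 1) scale) against distance from Chil1 in Mb, for Chi3l1 ko (upper plot) and Stat3 ko (lower plot); grey lines are 95% intervals, filled points are genes whose 4 and 4 libraries do not overlap, and rings mark an adjusted p under 0.05. The Chi3l1 ko differences lie between -0.58 and 0.63 with no ring, while 7 genes are ringed in Stat3 ko.

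Rabif (ENSMUSG00000042229, chr1:134494648-134508774, plus strand, 304 kb beyond Chil1) encodes a chaperone of Rab GTPases, the switches of vesicle traffic. It stood at 16.9, 15.4, 13.9 and 15.5 FPKM in WT, at 8.59, 10.6, 10.4 and 11.4 in Chi3l1 ko, and at 13.5, 17.4, 11.2 and 12.5 in Stat3 ko. Every Chi3l1 ko library was below every WT library, and the Stat3 ko libraries overlapped with both. These levels rest on 582 to 983 counts per library. limma gave a difference of -0.55 ± 0.13 for Chi3l1 ko against WT, a fold of 0.684 (unadjusted p 0.00122, adjusted p 0.9998), and -0.18 ± 0.13 for Stat3 ko against WT. The direct comparison of Chi3l1 ko with Stat3 ko gave -0.37 ± 0.13 with an adjusted p of 0.0759 by limma. DESeq2 on the 8 compared libraries gave -0.58 with an adjusted p of 0.00111, a call that held without any single library except WT 1 (0.0597).

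Btg2 (ENSMUSG00000020423, chr1:134075170-134079120, minus strand, 103 kb before Chil1) is an antiproliferative gene induced by p53. Its levels were 25.9, 28.1, 25.0 and 24.4 FPKM in WT and 21.5, 15.5, 15.6 and 16.0 in Chi3l1 ko. The Stat3 ko libraries stood at 21.0, 40.6, 28.3 and 19.3. Chi3l1 ko lay below WT without overlap, with 3 libraries close together and Chi3l1 ko 1 nearer to WT. limma gave -0.58 ± 0.20 for Chi3l1 ko against WT (unadjusted p 0.0146, adjusted p 0.9998) and 0.02 ± 0.20 for Stat3 ko against WT. Chi3l1 ko against Stat3 ko gave -0.60 ± 0.20 with an adjusted p of 0.0709. In DESeq2 on the 8 compared libraries the adjusted p was 0.00709, and the call was lost without WT 1 (0.103), WT 3 (0.0696) or Chi3l1 ko 3 (0.0786).

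For either change, an effect of position and a response to the lack of Chil1 cannot be told apart in this design. Neither can a difference of batch or litter between the groups, which the labels do not give. Between Btg2 and Rabif lie 7 further tested genes (Mybph, Adora1, Ppfia4, Tmem183a, Cyb5r1, Adipor1 and Klhl12), and neither limma nor DESeq2 on all 8 compared libraries called any of them. For Adora1 that DESeq2 fit gave no adjusted p, so it could not be called there. Without Chi3l1 ko 2, DESeq2 called Adora1 lower in Chi3l1 ko (adjusted p 1.37e-10).

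The stretches before the start sites of this pair and of Chil1 are shown because these are the transcripts on which the comparison turned. Each is the 250 bases before the RefSeq start (GRCm38.p6), given 5′ to 3′ on the strand of the gene, with GC boxes (GGGCGG) and CCAAT boxes (CCAAT) in capitals. Rabif lies at chr1:134494389-134494638, Btg2 at chr1:134079156-134079405 and Chil1 at chr1:134181906-134182155.
Rabif: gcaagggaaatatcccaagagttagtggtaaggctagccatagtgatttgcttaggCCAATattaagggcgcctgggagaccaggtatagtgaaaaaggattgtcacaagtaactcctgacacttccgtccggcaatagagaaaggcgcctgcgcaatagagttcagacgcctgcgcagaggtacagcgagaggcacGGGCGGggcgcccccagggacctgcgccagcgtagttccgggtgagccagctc
Btg2: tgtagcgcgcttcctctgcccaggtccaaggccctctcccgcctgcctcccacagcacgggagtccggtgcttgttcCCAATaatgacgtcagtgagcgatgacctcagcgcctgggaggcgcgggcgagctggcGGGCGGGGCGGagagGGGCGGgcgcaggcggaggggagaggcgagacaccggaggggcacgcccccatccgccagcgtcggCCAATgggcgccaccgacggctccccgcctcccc
Chil1: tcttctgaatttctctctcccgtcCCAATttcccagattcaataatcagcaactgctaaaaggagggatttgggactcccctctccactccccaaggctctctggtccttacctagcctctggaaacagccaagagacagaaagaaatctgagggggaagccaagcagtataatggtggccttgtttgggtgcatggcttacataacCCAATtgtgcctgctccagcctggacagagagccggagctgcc
The Btg2 stretch holds 3 GC boxes, the first 2 overlapping, and 2 CCAAT boxes, and 73.2% of its bases are G or C. Rabif has 1 of each box and 56.4% G or C, and Chil1 has 2 CCAAT boxes, no GC box and 51.6%. Searched on both strands, GGGCGG stands in 32.7% of the 32851 stretches of the table and CCAAT in 33.8%. The 60 neighbours with an entry had 79 such stretches, since some genes have more than 1. Of these 79 stretches, 31 held a GC box and 22 a CCAAT box. Counted by gene, 27 of the 60 had a GC box and 20 a CCAAT box, which is not comparable with the shares of stretches. The STAT motif TTCNNNGAA, found in 7.02% of all stretches, stood in 3 of the 79. These lie before Ppp1r12b, Sox13 and Tmem9, and the motif stood before none of the 3 genes printed here. TATAAA (12.4% of all stretches) stood in 3 of the 79 and CACGTG (6.02%) in 2. Such matches describe letters and not bound sites.

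Nuak2 (ENSMUSG00000009772, chr1:132316126-132333488), a kinase related to AMP-activated kinase, is the third neighbour lower without overlap, 1849 kb before Chil1. It stood at 6.25, 8.11, 6.25 and 6.21 FPKM in WT and at 5.30, 4.58, 5.28 and 5.53 in Chi3l1 ko, a gap that is narrow beside the spread within groups. limma gave -0.31 ± 0.21 with an adjusted p of 0.9998. In Stat3 ko it stood at 5.13, 10.8, 9.94 and 13.1, and Chi3l1 ko lay below Stat3 ko by -0.74 ± 0.21 (adjusted p 0.0425 by limma). That call was lost in 14 of 23 alternatives, among them leaving out any single library other than Stat3 ko 1 (adjusted p 0.0522 to 0.102).

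**Figure D2:**
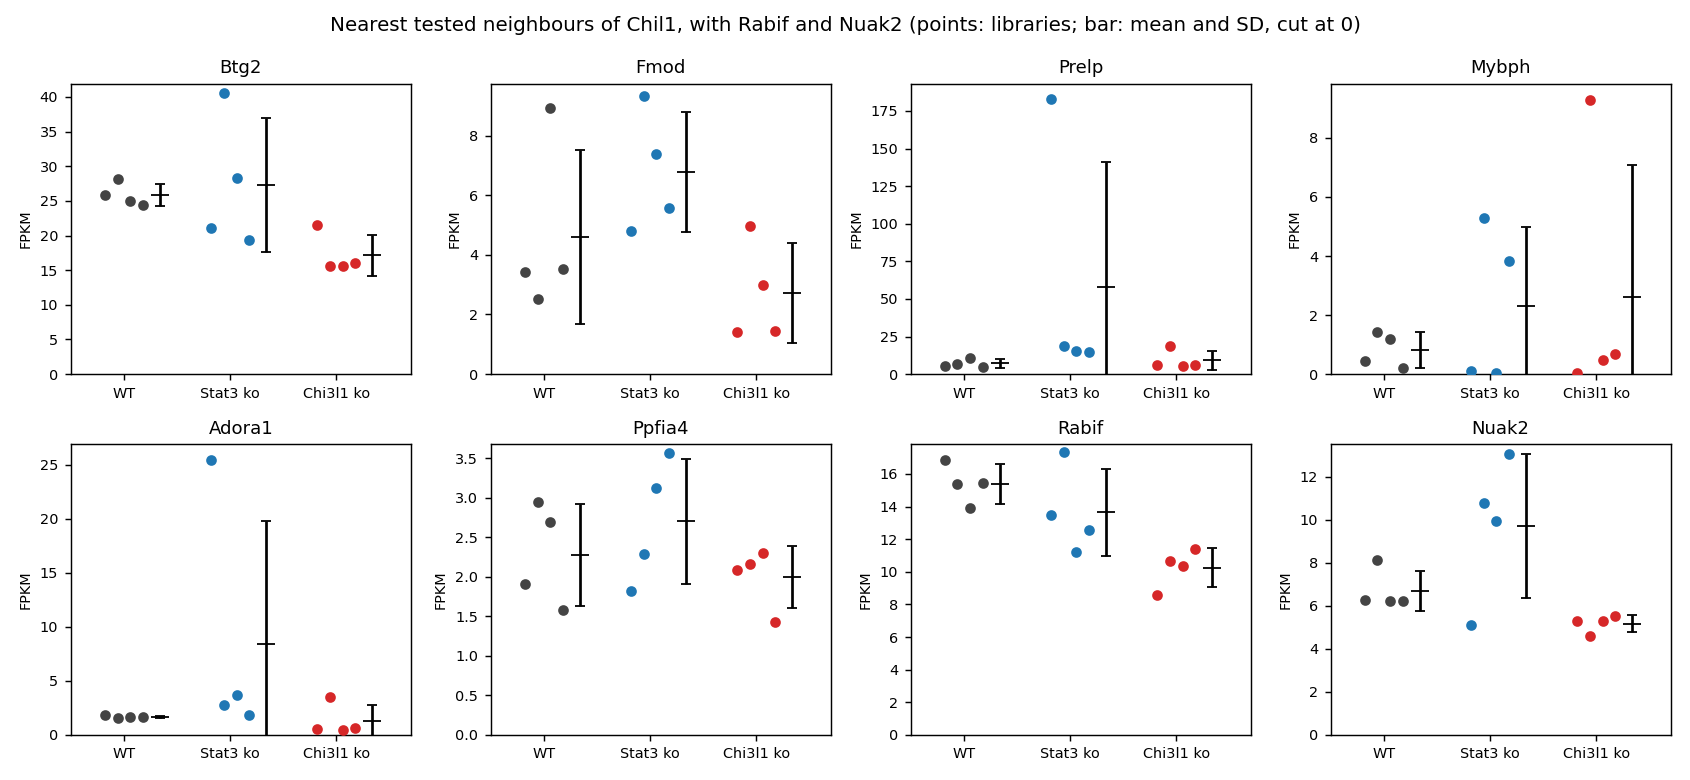
FPKM per library (points) with mean and SD (bars, cut at 0) for the 3 nearest tested neighbours on each side of Chil1 and for Rabif and Nuak2, in WT, Stat3 ko and Chi3l1 ko. Btg2, Rabif and Nuak2 show no overlap between WT and Chi3l1 ko; single libraries stand far from the rest in Prelp, Mybph and Adora1.

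In the nearest genes beyond Chil1 single libraries stood far from the rest. Mybph, a thick-filament protein of skeletal muscle, starts 3.27 kb beyond the end of Chil1. It stood at 0.433, 1.44, 1.20 and 0.202 FPKM in WT and at 0.0518, 9.28, 0.474 and 0.674 in Chi3l1 ko, where Chi3l1 ko 2 alone was high. Its difference was 0.38 ± 0.77, and -0.34 without Chi3l1 ko 2. That library held a sum of 9202 FPKM over 10 skeletal muscle markers, against 39.3 to 1111 in the other Chi3l1 ko libraries and 13.3 to 2945 in WT, and the part of muscle tissue in these values was not tested.

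Adora1, the adenosine A1 receptor, ends 9.04 kb from Chil1 on the opposite strand. It stood at 1.80, 1.52, 1.64 and 1.61 FPKM in WT and at 0.542, 3.53, 0.477 and 0.649 in Chi3l1 ko. Thus 3 Chi3l1 ko libraries lay below all WT libraries and Chi3l1 ko 2 lay above them. limma gave -0.38 ± 0.61 with all libraries and -0.76 without Chi3l1 ko 2, with adjusted p of 0.9998 and 1. DESeq2 on the compared libraries without Chi3l1 ko 2 gave -1.57 with an adjusted p of 1.37e-10, where the fit with that library gave -0.32 and no adjusted p. The counts behind this are small, 55 to 78 in the 3 low libraries and 178 to 197 in WT. Chi3l1 ko 2 also held the highest sum of 9 adipocyte markers of its group, 1092 FPKM against 206 to 250, and Stat3 ko 1, with 8364, had the highest Adora1 of all, 25.5 FPKM. The part of fat tissue in Adora1 was not tested. Adora1 and Mybph overlap by 2010 bases on opposite strands, and the sources used here do not say whether counting used the strand, so reads there cannot be told apart.

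The other nearest genes were Fmod and Prelp, small leucine-rich proteoglycans of the extracellular matrix, and Ppfia4, a liprin of synaptic scaffolds. Fmod stood at 3.42, 2.53, 8.92 and 3.54 FPKM in WT and at 1.42, 4.97, 2.99 and 1.46 in Chi3l1 ko, with overlap. Its difference of -0.58 ± 0.36 was -0.26 without WT 3 and -0.84 without Chi3l1 ko 2. Prelp stood at 5.28, 7.05, 11 and 5.06 in WT and at 6.07, 18.6, 5.59 and 6.03 in Chi3l1 ko. Its difference was 0.20 ± 0.71, and -0.17 without Chi3l1 ko 2. Ppfia4 was at 2.28 ± 0.645 FPKM in WT and 1.99 ± 0.390 in Chi3l1 ko (SD, n = 4), a difference of -0.12 ± 0.19. In bulk tissue such as this, fewer cells of a type and less RNA per cell cannot be told apart.

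The neighbours were also described by distance. Under 0.5 Mb, 14 of 19 genes were tested, 2 were lower without overlap (Btg2 and Rabif) and the median difference was -0.04. Between 0.5 and 1 Mb, 9 of 19 were tested, none stood apart and the median was 0.05. Between 1 and 2 Mb, 22 of 32 were tested, Nuak2 was lower without overlap and the median was 0.01. Among the 82 protein-coding genes that start 2 to 10 Mb from Chil1, 51 were tested, 0 were called by limma, 0 stood apart in either direction and the differences ran from -0.33 to 0.20. DESeq2 on the 8 compared libraries called 0 of those 51. The median was 0.01 among the neighbours before Chil1 and 0.01 among those after it.

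The width of the intervals differed between the neighbours. Each gene's spread was shared by the 3 groups, so the spread within Stat3 ko also enters the intervals of Chi3l1 ko against WT. For Lax1 the interval ran from -1.28 to 1.36. Its libraries stood at 0.362 to 1.51 FPKM in WT, 0.529 to 0.971 in Chi3l1 ko and 0.802 to 22.2 in Stat3 ko. In Chi3l1 ko against WT the 95% interval lay within a 2-fold change in both directions for 35 of 45 neighbours (77.8%, against 88.5% of all tested genes) and within 1.5-fold for 24 (53.3%, against 68.5%). For Adipor1 the interval ran from -0.21 to 0.25, for Kdm5b from -0.13 to 0.29, and for Cyb5r1, a reductase, from -0.30 to 0.27. Adipor1 stood at 36.7, 38.0, 38.1 and 37.8 FPKM in WT and at 38.1, 41.8, 35.8 and 37.2 in Chi3l1 ko. Snrpe, an Sm core protein of the spliceosome, had a wider interval, -0.70 to 0.81. The widest was that of Cacna1s, the calcium channel of skeletal muscle, from -1.75 to 3.02.

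The largest positive differences among the neighbours rested on a single library. Cacna1s differed by 0.63, Shisa4, a membrane protein, by 0.53, Mybph by 0.38, and Ppp1r12b, a targeting subunit of myosin phosphatase, by 0.23. Without Chi3l1 ko 2 they came to -0.13, 0.04, -0.34 and 0.05. Cacna1s stood at 0.104, 14.3, 0.528 and 2.73 FPKM in Chi3l1 ko and Shisa4 at 1.61, 11.1, 2.18 and 2.73, in each case highest in Chi3l1 ko 2, the library with the high muscle marker sum. Among the negative differences Pkp1, a desmosomal plaque protein, gave -0.52 ± 0.38, with 3.11, 0.605, 3.80 and 1.82 FPKM in WT against 1.04, 1.33, 0.938 and 1.27 in Chi3l1 ko. WT 2 was below all Chi3l1 ko libraries, so the groups overlapped, and without WT 3 the difference was -0.31. DESeq2 on the compared libraries called Pkp1 only when WT 2 was left out (adjusted p 0.00328).

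Stat3 ko, set against the same 4 WT libraries, showed how much the same genes moved where another locus was targeted. limma called 7 of 45 neighbours in Stat3 ko against WT, against 14% of all tested genes, so the share of the neighbours (15.6%) was near that of all genes. Tmcc2 and Ptpn7 rose (5.61% of all genes were called higher). Plekha6, Lad1, Tmem9, Kdm5b and Tmem183a fell (8.39% called lower). Their groups did not overlap in 4 neighbours that were higher (9.67% over all genes) and 7 that were lower (11.6%). The median difference of the 45 was 0.15, against -0.02 over all tested genes. At an unadjusted p under 0.05 stood 16 of 45 (34.1% of all genes). The count of called neighbours depended on the fit. It was 0 with limma on only the compared groups, where 506 of all tested genes were called. With all libraries it was 12 with edgeR (7 higher, 5 lower, 17.3% of all genes) and 15 with DESeq2 (9 higher, 6 lower, 26.6%). On the 8 compared libraries it was 1 with edgeR (4.21%) and 14 with DESeq2 (21%). With limma it was 2 without WT 1, 4 without WT 3, 3 without WT 4 and 12 without Stat3 ko 4. Over all tested genes these fits, in that order, called 571, 912, 766 and 3252, against 1911 with all libraries.

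Of the epithelial junction genes limma called 2 of 3 tested in Stat3 ko against WT, both lower, where 8.39% of all tested genes were called lower. Lad1 stood at 38.7, 23.4, 36.1 and 42.3 FPKM in WT and at 8.05, 9.70, 20.0 and 18.6 in Stat3 ko, without overlap, and Chi3l1 ko stood at 35.7, 26.9, 33.0 and 31.3. limma gave -1.32 ± 0.27 for Stat3 ko against WT (adjusted p 0.0133) and 1.21 ± 0.27 for Chi3l1 ko against Stat3 ko (0.0187). Plekha6, a pleckstrin homology domain protein, stood at 9.46, 9.12, 9.10 and 7.64 in WT, at 5.41, 2.87, 5.63 and 5.32 in Stat3 ko and at 9.52, 7.0, 8.97 and 9.08 in Chi3l1 ko. The Stat3 ko libraries lay below all others, with differences of -0.79 ± 0.17 from WT (adjusted p 0.0144) and 0.76 ± 0.17 for Chi3l1 ko against Stat3 ko (0.0163). Pkp1, the third member, was not called (-0.27 ± 0.38).

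The sum of 8 luminal epithelial markers was 1195, 1371, 2627 and 2913 FPKM in Stat3 ko, against 2318 to 3447 in WT and 2131 to 2882 in Chi3l1 ko. None of these markers was at 0 in a library. Lad1 was lowest in the 2 Stat3 ko libraries with the lowest sums, and the part of epithelial content in it was not tested. Without the 3 libraries over 2% mitochondrial counts (Stat3 ko 1, Stat3 ko 2 and Chi3l1 ko 2), which include both, the differences from WT were -0.80 for Lad1 (adjusted p 0.0438) and -0.60 for Plekha6 (0.00680). Both calls were lost with limma on only the compared groups (0.0596 and 0.0557) and with edgeR on them (0.0575 and 0.0594), and Plekha6 also without WT 1 (0.0513).

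Tmem9, a lysosomal membrane protein, stood at 19.3, 19.9, 20.9 and 22.6 FPKM in WT and at 12.7, 10.4, 14.1 and 16.3 in Stat3 ko, a difference of -0.61 ± 0.13 (adjusted p 0.0138). That call was kept without any single library, and was lost without the libraries over 2% mitochondrial counts (0.0584) and, narrowly, in the fit of only the compared groups (0.0501). Kdm5b, a histone demethylase 370 kb from Chil1, stood at 6.11, 5.13, 5.46 and 5.82 in WT, at 3.91, 3.27, 4.13 and 4.48 in Stat3 ko and at 5.87, 5.40, 5.90 and 6.88 in Chi3l1 ko. Its difference from WT was -0.43 ± 0.10 in Stat3 ko (adjusted p 0.0194), lost without WT 1 (0.0688), without WT 4 (0.0577) or without the libraries over 2% mitochondrial counts (0.0661). Tmem183a fell by 0.52 (SE 0.14, adjusted p 0.0346), with 32.6, 29.5, 30.0 and 36.2 FPKM in WT and 17.9, 18.4, 26.3 and 26.8 in Stat3 ko. This call was lost in 12 of 23 alternatives, among them leaving out any 1 WT library (adjusted p 0.0526 to 0.0968), Stat3 ko 1 (0.0616), Stat3 ko 2 (0.0859), Chi3l1 ko 1 (0.0507) or Chi3l1 ko 3 (0.0512). Without the libraries over 2% mitochondrial counts its difference was -0.26 (0.134). Like Lad1, the genes Tmem9, Kdm5b and Tmem183a were each lowest in the 2 Stat3 ko libraries with the lowest luminal marker sums. The part of epithelial content in them was not tested.

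**Figure D3:**
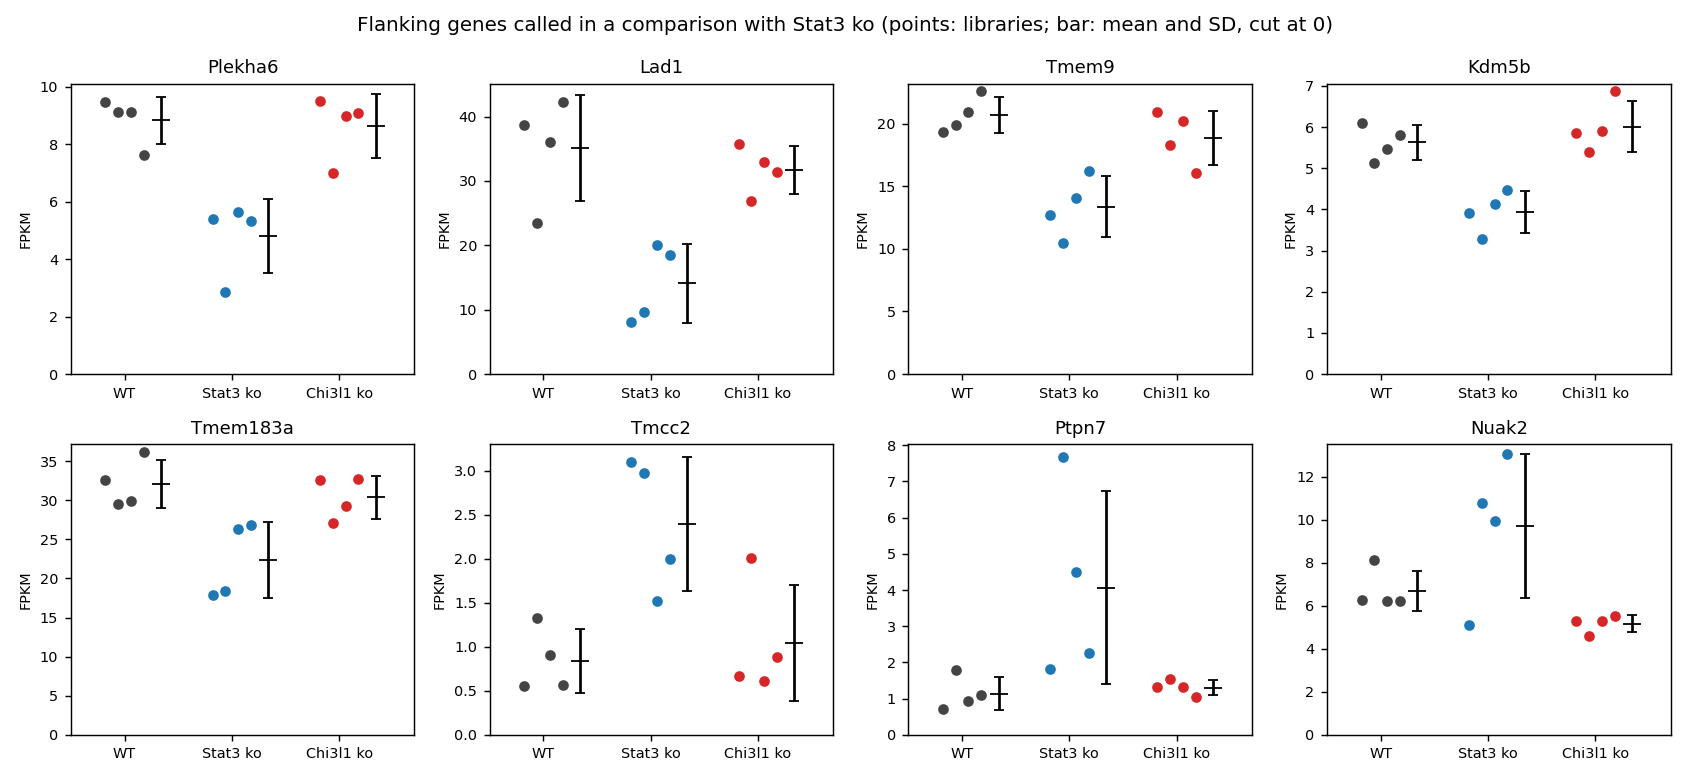
FPKM per library (points) with mean and SD (bars) of the 8 neighbours called in a comparison that involves Stat3 ko. The Stat3 ko points of Plekha6, Lad1, Tmem9, Kdm5b and Tmem183a lie below all WT points, those of Tmcc2 and Ptpn7 above them, and Nuak2 overlaps.

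Of the genes that rose in Stat3 ko, Tmcc2, a transmembrane coiled-coil protein, stood at 0.560, 1.33, 0.907 and 0.569 FPKM in WT and at 3.10, 2.98, 1.52 and 2.00 in Stat3 ko, a difference of 0.88 ± 0.24 (adjusted p 0.0338). Ptpn7, a tyrosine phosphatase of haematopoietic cells, stood at 0.725, 1.78, 0.924 and 1.1 in WT and at 1.83, 7.68, 4.50 and 2.27 in Stat3 ko, a difference of 1.13 ± 0.30 (0.0342). Both calls depended on single libraries. The Tmcc2 call ended when Stat3 ko 1 (0.0654) or Stat3 ko 2 (0.0849) was left out, and likewise for WT 1 (0.101), WT 3 (0.0676) and WT 4 (0.0912). The Ptpn7 call ended without Chi3l1 ko 1 (0.0514), Chi3l1 ko 3 (0.0505), Stat3 ko 2 (0.0569) or Stat3 ko 3 (0.0562), and without WT 1 (0.102), WT 3 (0.0796) or WT 4 (0.0799).

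Lax1, an adaptor that dampens lymphocyte receptor signalling, was the other lymphocyte gene of the window. It stood at 0.557, 1.51, 0.570 and 0.362 FPKM in WT and at 3.53, 22.2, 8.83 and 0.802 in Stat3 ko, with a difference of 1.95 ± 0.60 that missed the threshold with limma (adjusted p 0.0524) and passed it with edgeR (0.0207) and DESeq2 (4.11e-05) on all libraries. Kif21b, a kinesin that carries cargo along microtubules, followed the same order, with 2.31, 13.8, 6.99 and 1.46 in Stat3 ko against 1.15 to 1.57 in WT (1.19 ± 0.45, adjusted p 0.0886 with limma, 0.0302 with edgeR and 0.000847 with DESeq2 on all libraries). The authors' deposited table for Stat3 ko against WT gives Lax1 at a log2 fold change of 3.54 with an adjusted p of 0.000371, and Kif21b at 2.07 with 0.00633. That authors' deposited table also has, under an adjusted p of 0.05, each gene limma called here and Ppp1r12b, Phlda3, Atp2b4, Klhl12 and Mroh3. It rests on the same counts and lists 6155 genes, and how many of all genes pass there was not counted. DESeq2 on the same 8 libraries called 14 neighbours and 21% of all tested genes. The sum of 8 B cell markers was 56.4, 666, 275 and 33.5 FPKM in the 4 Stat3 ko libraries, against 9.21 to 21.5 in WT and 10.6 to 30.8 in Chi3l1 ko. The marker Ms4a1 was at 0 in at least 1 library of every group. The sum of 10 T cell markers was likewise highest in Stat3 ko 2 (288) and Stat3 ko 3 (172), against 17.6 to 36.6 in WT. The part of lymphocytes in Ptpn7, Lax1 and Kif21b was not tested.

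Prelp and Adora1 were far higher in Stat3 ko 1 than in the other Stat3 ko libraries. Prelp stood at 183, 18.9, 15.6 and 14.6 FPKM in Stat3 ko, and all 4 libraries lay above every WT library. Its difference of 2.01 ± 0.71 (limma adjusted p 0.0761) was 1.15 without Stat3 ko 1 (0.0653), and 1.05 without the libraries over 2% mitochondrial counts, a fit that called it (0.0326). Fmod, the other tested matrix gene, was lowest in Stat3 ko 1, with 4.79, 9.33, 7.39 and 5.59 FPKM in Stat3 ko, and was not called (0.56 ± 0.36). Adora1 stood at 25.5, 2.78, 3.67 and 1.88, a difference of 1.20 ± 0.61 (adjusted p 0.184) that came to 0.49 without it. Phlda3 (122 FPKM) and Atp2b4 (7.79), which were chosen after their values were seen, were also highest in that library. Its adipocyte marker sum was 8364 FPKM, against 891 to 1166 in the other Stat3 ko libraries and 118 to 498 in WT, and no marker of this list was at 0. Stat3 ko 1 also held the highest sums of the fibroblast (1130 FPKM), endothelium (117) and basal and myoepithelial (344) markers of all libraries. The part of fat or of any other tissue in these genes was not tested.

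**Figure D4:**
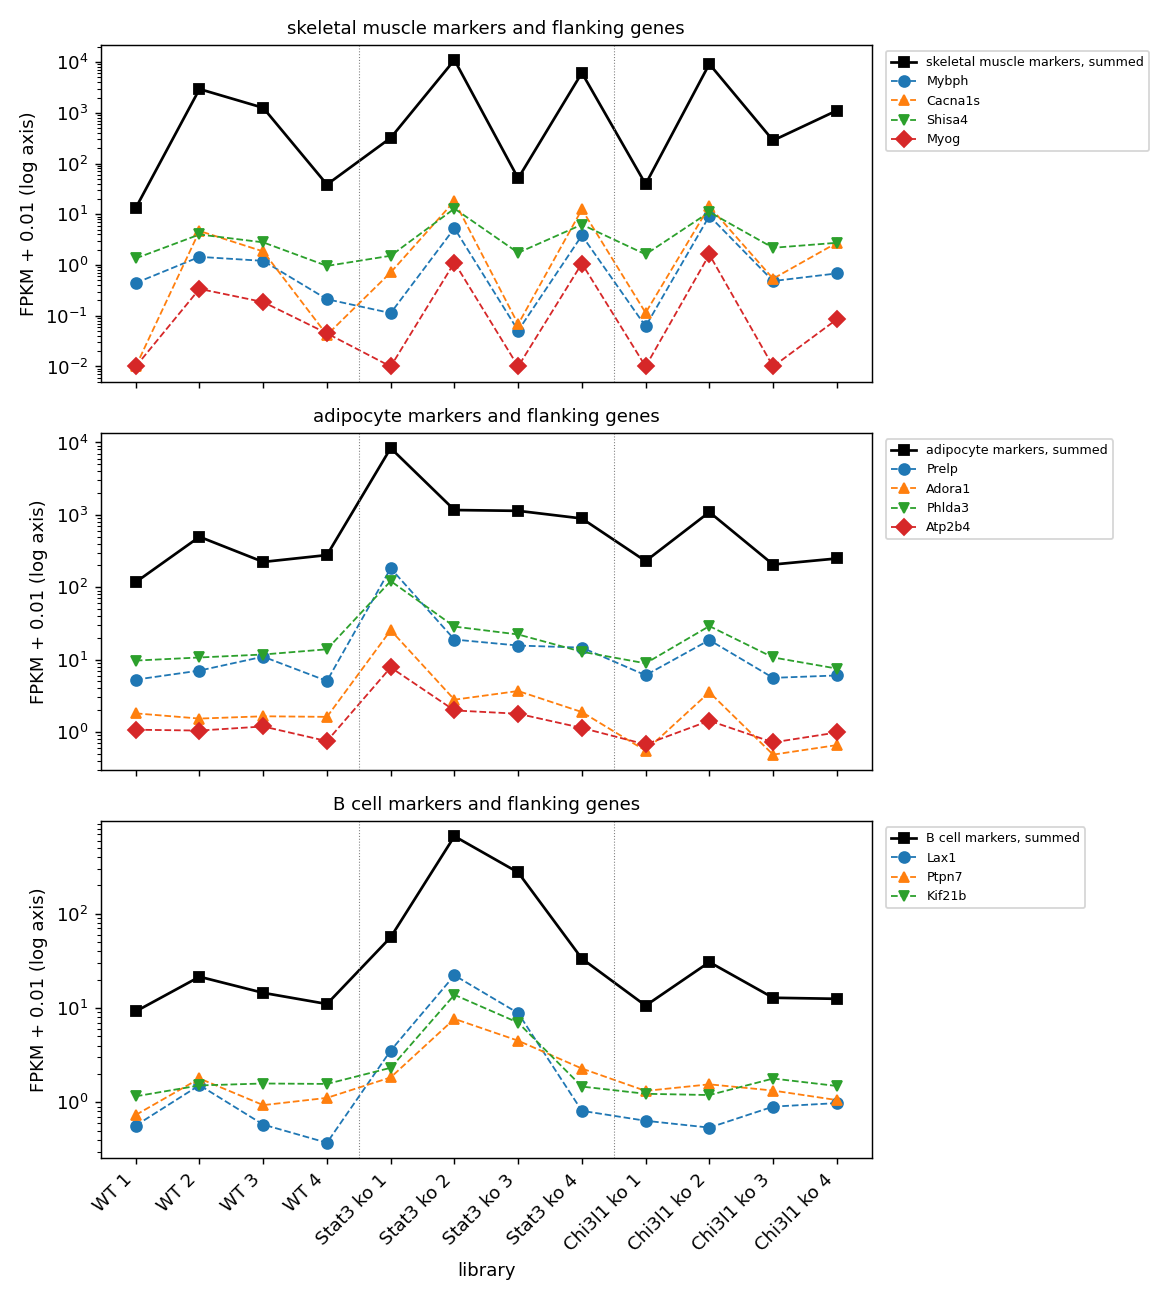
Summed FPKM of marker lists (black squares) and FPKM of flanking genes (coloured symbols) per library, on log axes with 0.01 added: skeletal muscle, adipocyte and B cell markers from top to bottom. The genes drawn with the muscle markers peak in Stat3 ko 2, Stat3 ko 4 and Chi3l1 ko 2. Those drawn with the adipocyte markers peak in Stat3 ko 1, and those drawn with the B cell markers in Stat3 ko 2 and Stat3 ko 3.

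Chi3l1 ko was also compared with Stat3 ko directly. limma called 5 of 45 neighbours, against 13.2% of all tested genes. Plekha6 (0.76), Kdm5b (0.51 ± 0.10, adjusted p 0.00964), Lad1 (1.21) and Tmem9 (0.48 ± 0.13, adjusted p 0.0324) were higher in Chi3l1 ko (8% of all genes), and Nuak2 was lower (5.19%). The libraries did not overlap in 6 neighbours that were higher (10.2% over all genes) and 1 that was lower (6.85% over all genes). Kdm5b kept its call without any single library and lost it in the fit of only the compared groups (0.0516). Plekha6 lost it without Chi3l1 ko 1 (0.0580) or Chi3l1 ko 4 (0.0534). Lad1 lost it without Stat3 ko 2 (0.0501), Chi3l1 ko 1 (0.0621), Chi3l1 ko 3 (0.0527) or Chi3l1 ko 4 (0.0536), and Tmem9 without Stat3 ko 1 (0.0526), Stat3 ko 2 (0.0688), Chi3l1 ko 1 (0.102) or Chi3l1 ko 3 (0.0888). The count fell to 3 without Stat3 ko 2, 1 without Chi3l1 ko 1, 2 without Chi3l1 ko 3 and 2 without Chi3l1 ko 4, and it was 12 without Stat3 ko 4. Over all tested genes these fits, in that order, called 1074, 611, 773, 686 and 2890, against 1799 with all libraries. By fit the count of neighbours was 0 with limma on only the compared groups, where 505 of all tested genes were called. With all libraries it was 11 with edgeR (5 higher, 6 lower, 14.2% of all genes) and 18 with DESeq2 (6 higher, 12 lower, 23.9%). On the 8 compared libraries it was 1 with edgeR (4.31%) and 11 with DESeq2 (16.3%). At an unadjusted p under 0.05 with limma stood 22 of 45 neighbours (48.9%), against 31.7% of all tested genes.

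By role, limma called no member of the 11 groups into which the neighbours were sorted in Chi3l1 ko against WT, while DESeq2 on the 8 compared libraries called Rabif of the traffic group and Btg2 of the p53 group. The 10 tested genes of traffic, ubiquitin, import and proteolysis, the largest of these groups, had a median of -0.08 there, with Rabif at the lower end (-0.55) and Klhl12, a ubiquitin ligase adaptor, at the upper (0.04). In Stat3 ko the same group had 2 of 10 called lower (Tmem9 and Tmem183a), against 8.39% of all tested genes. Its median there was -0.16. The 4 genes sorted under p53 and growth arrest (Mdm4, Ppp1r15b, Btg2 and Phlda3) ran from -0.58 to 0.08 in Chi3l1 ko with Btg2 lowest. Ppp1r15b, a phosphatase subunit of the stress response, stood at 23.5 ± 3.74 FPKM in WT and 23.3 ± 2.02 in Chi3l1 ko (SD, n = 4). The 5 tested chromatin and RNA genes ran from -0.04 to 0.08 in Chi3l1 ko. Of these 5, 1 (Kdm5b) was called lower in Stat3 ko, against the same 8.39% of all tested genes. The 5 tested genes sorted under smooth muscle and the actin cytoskeleton ran from 0.06 to 0.53 in Chi3l1 ko, with Shisa4 highest. Of these, limma called none in either knockout. In Stat3 ko Ppp1r12b missed the threshold with limma (0.72, adjusted p 0.0512) and passed it with edgeR (0.0422) and DESeq2 (0.00754) on all libraries. Of the 6 skeletal and cardiac muscle genes only Mybph and Cacna1s could be tested.

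Some low values stood apart in the untested genes and are given as counts only, chosen after they were seen. 4933406M09Rik had 1, 1, 1 and 4 counts in WT and 0 in all 8 knockout libraries. Mroh3 had 22, 21, 15 and 3 counts in WT, 0, 1, 1 and 3 in Stat3 ko and 9, 1, 6 and 7 in Chi3l1 ko. The authors' deposited table lists Mroh3 at a log2 fold change of -1.51 in Chi3l1 ko against WT with an adjusted p of 0.9997, and at -3.57 in Stat3 ko against WT with an adjusted p of 0.00496.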

How the data were processed

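Total RNA from 12 mammary gland samples was sequenced, 4 libraries for each of 3 genotypes. The submitters' processing notes give GRCm38 and mm10 as builds and list STAR, HTSeq, Trimmomatic, limma and edgeR, with no version or role; the strand setting is not given in the sources used here. The authors deposited FPKM for 54532 genes in all libraries. Their comparison tables hold raw counts per gene, a normalised signal (counts divided by size factors), log2 fold changes and p-values for listed genes, and the deposited signal was not used. The design assumed FPKM, and that test was kept.

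From the deposited FPKM and gene lengths, whole counts were recovered (100% whole within 0.01 read, and 0 of 55832 deposited counts differed). Totals ran from 16217143 to 22607123 counts per library, with 1.00% to 4.79% mitochondrial. limma 3.58.1 in R 4.3.3, with an intensity trend, was fitted two-sided to log2(FPKM + 1) of all 12 libraries for the 13643 genes at 1 FPKM or more in 4 or more libraries. Calls required an adjusted p (Benjamini-Hochberg, over all tested genes) under 0.05. Fold changes on this scale understate changes of low genes. Alternatives were another pseudocount (0.1), no filter or a 5 FPKM minimum on the mean, scaling by median of ratios, only the compared groups, tests of the recovered counts with DESeq2 1.42.0 and edgeR 4.0.16, leaving out each library, and leaving out libraries over 2% mitochondrial. Count tests on the 8 compared libraries were added after the data were seen, as was leaving out each of those 8 libraries in DESeq2. The fit was tested on simulated data. An adjusted p that DESeq2 did not give was left missing.

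The neighbours, role lists and marker lists were chosen with earlier results of these data known. The genes named are those called in any comparison (up to 12 by lowest adjusted p in Chi3l1 ko against WT and 10 in each other), the 3 nearest tested neighbours on each side, the 4 largest differences each way in Chi3l1 ko against WT, the most abundant member of each role list and the 3 most abundant in all. Myog, Tnni1, Phlda3, Atp2b4, Klhl12, Mdm4, Sox13, Hes6, 4933406M09Rik and Mroh3 were chosen after their values were seen, and Lemd1, Cdk18 and Inava mark the window's edges. Promoter sequences come from RefSeq (GRCm38.p6), where 60 neighbours matched. Python 3.11.15 was used for tables (numpy 2.4.6, pandas 2.3.3, scipy 1.17.1) and matplotlib 3.10.9 for plots.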

Additional observations from a re-analysis of the deposited data

Results flagged for a closer look

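Among the 26 named genes, 10 of 78 groups of 4 libraries held a library whose gap to its nearest neighbour, divided by the group's range, was above Dixon's 95% critical value. Chance flags about 1 in 20 groups of independent, normally distributed values. Here the same libraries recur across genes, and some genes were named for their largest differences. That rate therefore cannot be set against these flags. In Chi3l1 ko, Chi3l1 ko 2 stood high for Prelp (18.6 FPKM, the others 5.59 to 6.07), Adora1 (3.53, the others 0.477 to 0.649) and Cyb5r1 (13.6, the others 10.8 to 11.3). Chi3l1 ko 1 stood high for Btg2, at 21.5 FPKM against 15.5 to 16.0. In Stat3 ko, Stat3 ko 1 stood high for Prelp (183 FPKM, the others 14.6 to 18.9) and low for Snrpe (10.5, the others 32.8 to 38.5). Stat3 ko 2 stood low for Plekha6, at 2.87 FPKM against 5.32 to 5.63. In WT, WT 2 stood high for Nuak2 (8.11 FPKM, the others 6.21 to 6.25), WT 4 high for Csrp1 (195, the others 141 to 149) and WT 1 low for Kif21b (1.15, the others 1.5 to 1.57).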

How the results depend on the processing

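No paired analysis was possible because the labels give no replicate numbers that tie libraries of different groups together. For Chi3l1 ko against WT the count of called neighbours was 0 in every limma and edgeR fit and in DESeq2 on all libraries, and 2 in DESeq2 on the 8 compared libraries, where leaving out 1 library gave 0 to 3. Over all genes the count was 1 with limma throughout (1 to 1 leaving out libraries), 8 with DESeq2 on all libraries and 29 on the 8. Leaving out 1 library of those 8 in DESeq2 gave 9 to 66 over all genes. The neighbours' median difference was -0.0388 without the libraries over 2% mitochondrial, and -0.0388 to 0.0129 leaving out single libraries, so its sign did not hold. For Stat3 ko against WT the neighbours called were 4 without a filter, 0 with only the compared groups, 12 with edgeR under either scaling, 15 with DESeq2, and 1 and 14 with edgeR and DESeq2 on the 8 compared libraries, with 2 to 12 leaving out single libraries. Over all genes these were 1149 without a filter, 506 with only the compared groups, and 2359 and 2351 with edgeR under TMM and median-of-ratios. The count over all genes was 3633 with DESeq2, 574 and 2861 with edgeR and DESeq2 on the 8, and 571 to 3252 leaving out libraries. For Chi3l1 ko against Stat3 ko the neighbours called were 3 without a filter, 0 with only the compared groups, 11 and 9 with edgeR under TMM and median-of-ratios, 18 with DESeq2, 1 and 11 with edgeR and DESeq2 on the 8, and 8 without the libraries over 2% mitochondrial, with 1 to 12 leaving out libraries. Over all genes these were 1119 without a filter, 505 with only the compared groups, and 1937 and 1941 with edgeR under TMM and median-of-ratios. The count over all genes was 3261 with DESeq2, and 588 and 2228 with edgeR and DESeq2 on the 8. It was 1575 without the libraries over 2% mitochondrial, and 611 to 2890 leaving out libraries. The cause of these shifts was not tested, beyond the fewer libraries in some fits. No called difference changed sign in any alternative. The neighbours' depth limits low genes most: Mybph rests on 2 to 478 counts per library and Adora1 on 55 to 2457.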
